A study of Mus musculus with 25 samples.

Results

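To ask what loss of *Rest* does to cortical neurons that have not been injured, 3 REST cKO sham libraries were compared with 4 WT sham libraries, 7 of the 25 libraries of the series, over 9931 genes with a symbol among 9955 rows of the deposited table. All of these mice were REST flx/flx; STOP flx/flx TdTomato on a C57BL/6 background and between 4 and 6 weeks old, so the WT mice carried the floxed alleles as well. WT mice had received AAV-Syn-GFP in the sensorimotor cortex. REST cKO mice had received AAV-Syn-Cre there, which deletes *Rest* and turns on TdTomato only in cells that take up the virus and use the human synapsin promoter. The deletion, the presence of Cre and the fluorescent protein therefore cannot be told apart. Sham surgery stood in place of the spinal cord crush (spinal cord injury, SCI), with a labelled recovery time of 0 days. The cortex was dissociated with papain, depleted of myelin and sorted by flow cytometry, and RNA of about 1000 cells per library was sequenced with a kit that tags the 3′ ends of transcripts. The study's methods name a gate for live GFP-positive cells, and how the TdTomato cells of the REST cKO mice were gated is not given in the sources used here. The libraries keep the numbers of the labels, replicates 3, 10, 14 and 17 for WT and 6, 18 and 23 for REST cKO. The study describes its replicates as mice, but no label ties a library to an animal, so the p-values measure only the spread between these libraries.

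REST, also called NRSF, is a zinc finger repressor that binds a DNA element known as RE1. It brings in corepressors such as RCOR1 (CoREST) and SIN3A with histone deacetylases and methyltransferases, and it keeps genes of synaptic vesicles, ion channels, neurofilaments and secretory granules silent outside the nervous system. Mature neurons hold little REST, and the protein is known to accumulate in them under stress.

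Because RE1 is the element through which REST acts, RefSeq promoters of GRCm38.p6, from 250 bases before to 50 after each start, were searched on both strands for the RE1 consensus. The motif has 17 positions, of which 15 are fixed letters and positions 10 and 11 are free, and the capitals of *Osbp2* below spell it without a mismatch. At most 1 mismatch in the fixed letters was found in 19 of 32851 promoters (0.0578%) and in 9 of the 7748 tested genes that have a promoter in the table. These 9 are shown because they are the closest matches among the genes measured, with the motif in capitals, 6 flanking bases in lower case and the span of the motif before each.
Osbp2, chr11:3774791-3774807, plus strand: caccgcTTCAGCACCGCGGACAGcggcca
Celsr3, chr9:108825918-108825934, plus strand: gctccgTTCAGCACCGTGGGCAGcacttc
Crip2, chr12:113140081-113140097, plus strand: ccctccTTCAGCACCACAGACAGgaccgc
Dner, chr1:84696355-84696371, minus strand: tgccggTTCAGCACCAAGGACAAgggccc
Fam163b, chr2:27142565-27142581, minus strand: accagcGTCAGCACCAGGGACAGttcctc
Gria2, chr3:80802989-80803005, plus strand: ttcgatTTTAGCACCGCGGACAGcgcttt
Rasgrf1, chr9:89909592-89909608, minus strand: gcccgtTTCAGCAGCGCGGACAGggacac
Scamp5, chr9:57468198-57468214, minus strand: cgaataTTTAGCACCACGGACAGctcctg
Syn1, chrX:20921134-20921150, minus strand: gtcggaTTCAGCACCGCGGTCAGagcctt

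Values are given below as deposited, in log2 units of normalized counts, and a difference is REST cKO minus WT with its standard error (SE). The base of the logarithm could not be checked and gene means span only -2.17 to 4.96, so no difference is turned into a fold. A gene passed the test at an adjusted p under 0.1 in limma, fitted over all libraries with the first 2 components of the sequencing metrics as covariates. A second, looser threshold was an unadjusted p under 0.05. Genes that met only the second did not pass the test, and their values are described without calling them changed.

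Several facts of the libraries bear on every comparison. Genes of microglia and plasma cells were among the most abundant of the 9931 genes in the sorted cells. The immunoglobulin light chain *Igkc* ranked 2 and the microglial protease *Ctss* ranked 3 by mean level in sham, and *Trem2* and *Tmem119* of microglia ranked 416 and 442. The neuronal genes *Meg3*, *Syt1*, *Snap25* and *Rbfox3* ranked 130, 258, 598 and 2952. The 4 WT libraries were of batches 1, 1, 2 and 2 and the REST cKO libraries of batches 1, 2 and 3, and the first sequencing component lay at -10.8 to 0.64 in WT and at -2.62, 15.7 and 10.5 in REST cKO. Within WT the libraries correlated at 0.415 to 0.545 across genes, between the genotypes at 0.357 to 0.549, and within REST cKO at 0.343 to 0.503. The labels give 2 male and 2 female WT libraries and 3 male REST cKO libraries. *Xist*, which is transcribed from the inactive X chromosome, was at 2.44 and 2.61 in the female WT libraries and at 0.44 and 0.43 in the male ones, against -1.11, 0.63 and 1.07 in REST cKO. *Kdm5d*, a gene of chromosome Y, was at 1.05, 1.58, 0.54 and 0.73 in WT and at -0.53, -0.60 and -0.51 in REST cKO, so its levels did not follow the labelled sex. A further 140 genes, unlike the rest, still correlated with a component, and the values of these genes are less certain.

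Markers of cell types differed between the genotypes as well. The mean of 10 markers of all neurons lay between 0.26 and 1.63 in the WT libraries and between 1.88 and 2.53 in the REST cKO libraries, without overlap. The mean of 7 measured markers of inhibitory neurons was -1.55 to 0.29 in WT and 0.36 to 1.25 in REST cKO, and that of 11 markers of excitatory neurons was 0.72 to 0.97 and 0.86 to 1.58, with overlap. The mean of 7 measured astrocyte markers was 1.05 to 1.38 in WT and 2.00 to 2.50 in REST cKO, also without overlap. The 12 microglial markers ran the other way, with means of 3.11 to 3.34 in WT and 2.80 to 3.05 in REST cKO. Endothelial markers overlapped, at 1.21 to 1.63 and 1.47 to 2.57, and so did those of oligodendrocytes, at -1.22 to 0.41 and -0.67 to 0.25. Of the marker genes with an unadjusted p under 0.05, 5 of 10 for all neurons, 4 of 7 for astrocytes, 3 of 10 for endothelial cells, 1 of 11 for excitatory neurons and 1 of 7 for pericytes had higher values in REST cKO, and 4 of 12 for microglia had lower ones, where 3.67% of all genes had higher and 3.24% lower values. Over the alternatives these counts ran from 3 to 6 for all neurons, 1 to 4 for astrocytes, 0 to 5 for endothelial cells and 0 to 5 for microglia, and without REST cKO replicate 6 they were 4, 1, 0 and 2. Without WT replicate 3 they were 3, 2, 2 and 4, without WT replicate 10 the endothelial count was 1, and without WT replicate 14 or REST cKO replicate 23 the astrocyte count was 2. In sorted bulk libraries, fewer cells of a type and less RNA per cell cannot be told apart. The part of these differences in the results that follow was not tested, beyond a fit with a term for the microglial markers.

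**Figure D1:**
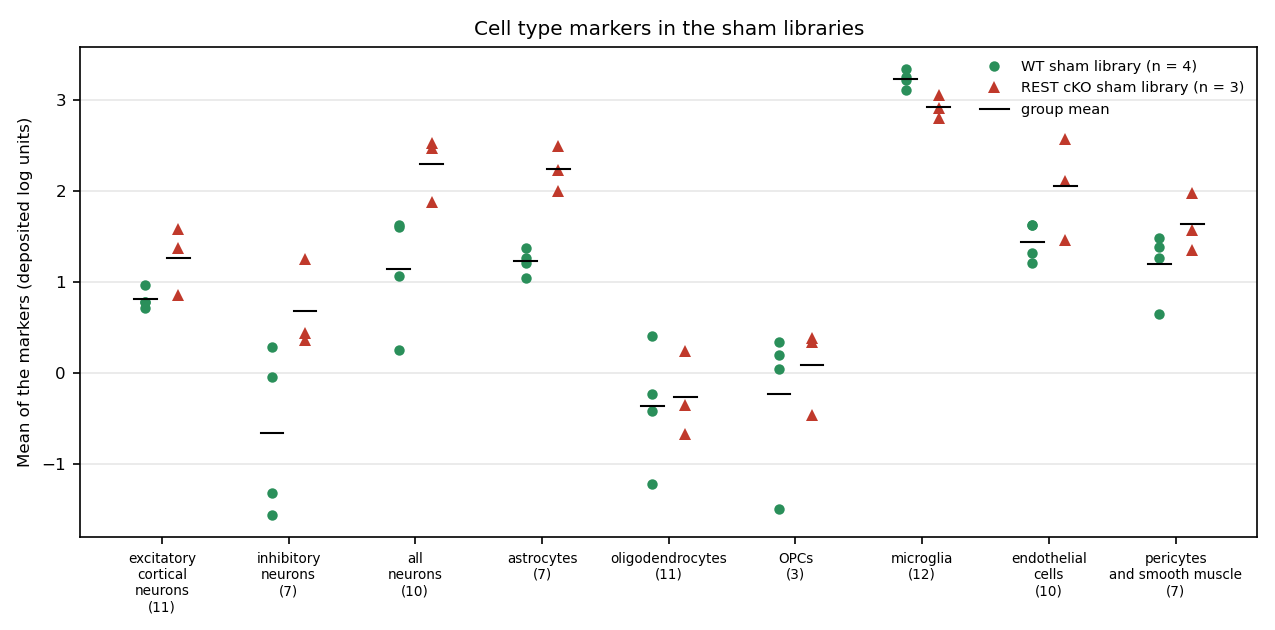
Mean of the marker genes of each cell type in each sham library, in deposited log units, with the number of measured markers in brackets and 1 point per library. The REST cKO points lie above all WT points for all neurons, inhibitory neurons and astrocytes, and below all of them for microglia.

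*Rest* itself (chr5:77265491-77286432, GRCm38) did not separate the genotypes. It was at -0.55, -0.26, -0.39 and -1.55 in WT and at -2.65, -0.79 and -0.52 in REST cKO. Replicate 6 held the lowest level, and the other REST cKO libraries lay within the WT range. The fitted difference was -1.47 (SE 0.99, adjusted p = 0.83 in limma) and it was -0.51 without replicate 6. It was -2.24 in batch 1 and 0.18 in batch 2. The floxed exon is not given in the sources used here and the kit reads 3′ ends, so a tag outside the deleted part would check nothing. *Rest* is also among the 140 genes that correlate with a component.

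The 21 measured genes of REST and its corepressors had a median difference of -0.02, against 0.04 for all genes, and 0 of them met the unadjusted threshold in either direction. The median was 0.25 in batch 1, -0.59 in batch 2 and 0.34 without REST cKO replicate 6, and it ran from -0.41 to 0.37 over the other alternatives. *Ehmt2*, the histone methyltransferase G9a, was at -0.66, -0.18, -0.95 and -0.78 in WT and at 2.03, 1.10 and 0.02 in REST cKO. Its 3 REST cKO values exceeded all WT values, with a difference of 1.72 (SE 0.96, adjusted p = 0.763) that was 0.67 without replicate 6 and 0.42 with the microglial term. *Ctdsp1*, a phosphatase of the REST complex, differed by 2.48 (SE 1.49, adjusted p = 0.788) with overlapping libraries.

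Across all genes, 3 of 9931 (0.0302%) passed the test, and all 3 fell in REST cKO. Under the unadjusted threshold 686 genes (6.91%) were found, 364 with higher values (3.67%) and 322 with lower values (3.24%) in REST cKO. Libraries did not overlap for 781 genes (7.86%), with REST cKO above WT for 399 (4.02%) and below for 382 (3.85%).

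*Igha*, the constant region of the immunoglobulin A heavy chain and a product of plasma cells, was at 4.08, 4.53, 4.39 and 3.93 in WT and at 3.50, 3.26 and 3.62 in REST cKO (chr12:113254830-113260236). Every REST cKO library lay below every WT library, and the fall was by 1.00 on the log2 scale (SE 0.18, adjusted p = 0.0511). Among other abundant immunoglobulin genes *Igkc* differed by -0.20 (adjusted p = 0.872) and *Ighg2c* by 0.10 (adjusted p = 0.98). Of 46 immunoglobulin genes 2 (4.35%, against 3.67% of all genes) had higher and 4 (8.7%, against 3.24%) lower values under the unadjusted threshold, with a median of -0.08. The median ran from -0.28 to 0.069 over the alternatives, with 0 to 2 genes higher and 2 to 6 lower. That list was added after its values were seen.

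*N4bp2l2* (chr5:150608007-150666183) was at 1.81, 2.30, 2.49 and 1.01 in WT and at -2.88, 0.71 and -1.13 in REST cKO, and fell by 3.96 (SE 0.73, adjusted p = 0.0511). *Rpl3-ps1*, a processed pseudogene of the ribosomal protein gene *Rpl3* (chrX:13202571-13203780), was at 2.32, 2.81, 3.15 and 2.79 in WT and at -3.18, 0.46 and -0.65 in REST cKO, and fell by 5.19 (SE 0.97, adjusted p = 0.0511). In both, replicate 6 was the lowest and replicate 18 the highest of the REST cKO libraries. Without replicate 6 the differences were -2.72 and -4.24 and neither passed (adjusted p = 0.561 for each). In batches 1 and 2 the differences were -4.93 and -1.04 for *N4bp2l2*, and -5.75 and -2.51 for *Rpl3-ps1*. The parent gene *Rpl3* was at 2.18 to 2.32 in WT and 2.59 to 2.72 in REST cKO, so its libraries did not overlap in the opposite direction. Reads can be split between a pseudogene and its parent, and the value of *Rpl3-ps1* is uncertain for that reason. The calls of all 3 genes were lost without WT replicate 3, 10 or 14 (adjusted p = 0.119 to 0.297), without the components (adjusted p = 0.199), or with only the 7 sham libraries, and that of *Rpl3-ps1* also without WT replicate 17 (adjusted p = 0.121). With a term for the microglial markers *Igha* (a difference of -0.83, adjusted p = 0.552) and *N4bp2l2* (a difference of -4.13, adjusted p = 0.377) no longer passed. Over all alternatives the adjusted p ran from 0.0468 to 0.617 for *Igha*, 0.0208 to 0.857 for *N4bp2l2* and 0.0325 to 0.561 for *Rpl3-ps1*.

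The 12 genes with the smallest p-values and higher values in REST cKO were taken outside the sex chromosomes, with a mean level of at least 0 and without overlap between the genotypes. *Thra*, the thyroid hormone receptor alpha, was at -0.02, 0.84, 0.71 and 0.64 in WT and at 2.47, 2.43 and 2.49 in REST cKO. *Snap25*, a SNARE protein of synaptic vesicle fusion, was at 1.13, 2.11, 1.65 and 2.09 in WT and at 3.23, 2.92 and 3.21 in REST cKO. *Tuba1a*, the alpha tubulin of growing neurons, was at 1.58, 2.58, 2.45 and 2.78 in WT and at 3.51, 3.63 and 3.63 in REST cKO. In each of these genes the 3 REST cKO libraries lay close together, and the absence of overlap was set by the rule. The differences were 2.39 (SE 0.55, adjusted p = 0.161), 1.66 (SE 0.45, adjusted p = 0.367) and 1.23 (SE 0.30, adjusted p = 0.188), none of which passed the test.

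*Mapt*, which encodes the microtubule protein tau, was at 0.99, 1.59, 1.52 and 1.42 in WT and at 2.84, 2.20 and 2.50 in REST cKO, a difference of 1.5 (SE 0.39, adjusted p = 0.298). *Rtn1*, a reticulon of the endoplasmic reticulum, differed by 1.10 (SE 0.31), with levels of 2.04 to 2.63 and 3.02 to 3.41. *Prnp*, the prion protein gene, was at 0.40, 0.39, 0.46 and 2.00 in WT and at 2.85, 2.67 and 2.48 in REST cKO, so that WT replicate 17 stood apart from its group. *Sept8*, a septin, differed by 3.81 (SE 1.04), but WT replicate 10 alone was at -2.84 against 0.08 to 0.61 in the other WT libraries. *Pianp*, a membrane protein of neurons, differed by 3.51 (SE 0.99), with WT libraries spread from -2.80 to 0.81 and REST cKO libraries at 1.98 to 2.07.

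The same 12 held genes known from glial cells. *Tril*, an accessory protein of Toll-like receptor 4, was at -0.75, 0.01, 0.65 and 0.67 in WT and at 2.37, 1.83 and 2.62 in REST cKO, a difference of 2.79 (SE 0.61, adjusted p = 0.156). *Plpp3*, a lipid phosphate phosphatase, was at 0.10, 0.58, 1.22 and 0.88 against 2.57, 3.09 and 1.69, a difference of 2.06 (SE 0.52, adjusted p = 0.253). *Gja1*, the gap junction protein connexin 43 of astrocytes, was at -0.20, 0.02, 0.62 and 0.09 against 2.26, 1.09 and 1.18, a difference of 1.88 (SE 0.55, adjusted p = 0.471). The means of the astrocyte markers, given above, were also higher in REST cKO, and their part in these values was not tested.

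The 12 genes with lower values, taken by the same rule, held several known from myeloid cells. *Inpp5d*, the inositol phosphatase SHIP1, was at 2.69, 2.26, 3.54 and 1.76 in WT and at 0.57, 1.60 and 1.62 in REST cKO. *F13a1*, the coagulation factor XIII A subunit made by macrophages, was at 2.73, 1.52, 1.11 and 1.91 in WT and at -0.88, -0.36 and -0.53 in REST cKO. *Apoe*, the lipid carrier of astrocytes and microglia, was at 4.15, 4.10, 3.81 and 3.91 in WT and at 3.55, 3.37 and 3.26 in REST cKO. The differences were -1.71 (SE 0.40, adjusted p = 0.168), -3.15 (SE 0.78, adjusted p = 0.239) and -0.70 (SE 0.20, adjusted p = 0.43). *Gngt2*, a G protein gamma subunit, differed by -3.02 (SE 0.71), and *Ifi207*, an interferon-inducible gene, by -2.82 (SE 0.64).

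Others of the 12 act in many cell types. *Nek6*, a kinase of mitosis, was at 1.61, 1.74, 1.60 and 1.73 in WT and at -0.83, -0.61 and -0.30 in REST cKO, a difference of -3.01 (SE 0.66, adjusted p = 0.156). *Aqr*, an RNA helicase of the spliceosome, was at 1.91, 1.38, 1.70 and 1.08 against -1.28, -1.09 and -0.91, a difference of -3.43 (SE 0.77, adjusted p = 0.161). *Pid1*, an adaptor protein that binds a lipoprotein receptor, was at 1.82, 2.20, 1.99 and 1.25 against -0.28, 0.31 and 0.25, a difference of -2.43 (SE 0.50, adjusted p = 0.13). In all 3 the libraries of a genotype lay close together. *Taf15*, an RNA-binding protein of the FET family, differed by -2.14 (SE 0.50), with REST cKO replicate 23 at 1.33 and the other REST cKO libraries at -0.80 and -0.31. *Mettl23*, a methyltransferase gene, differed by -4.76 (SE 1.32) with a wide spread, from 0.36 to 3.38 in WT and from -2.96 to -0.13 in REST cKO.

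**Figure D2:**
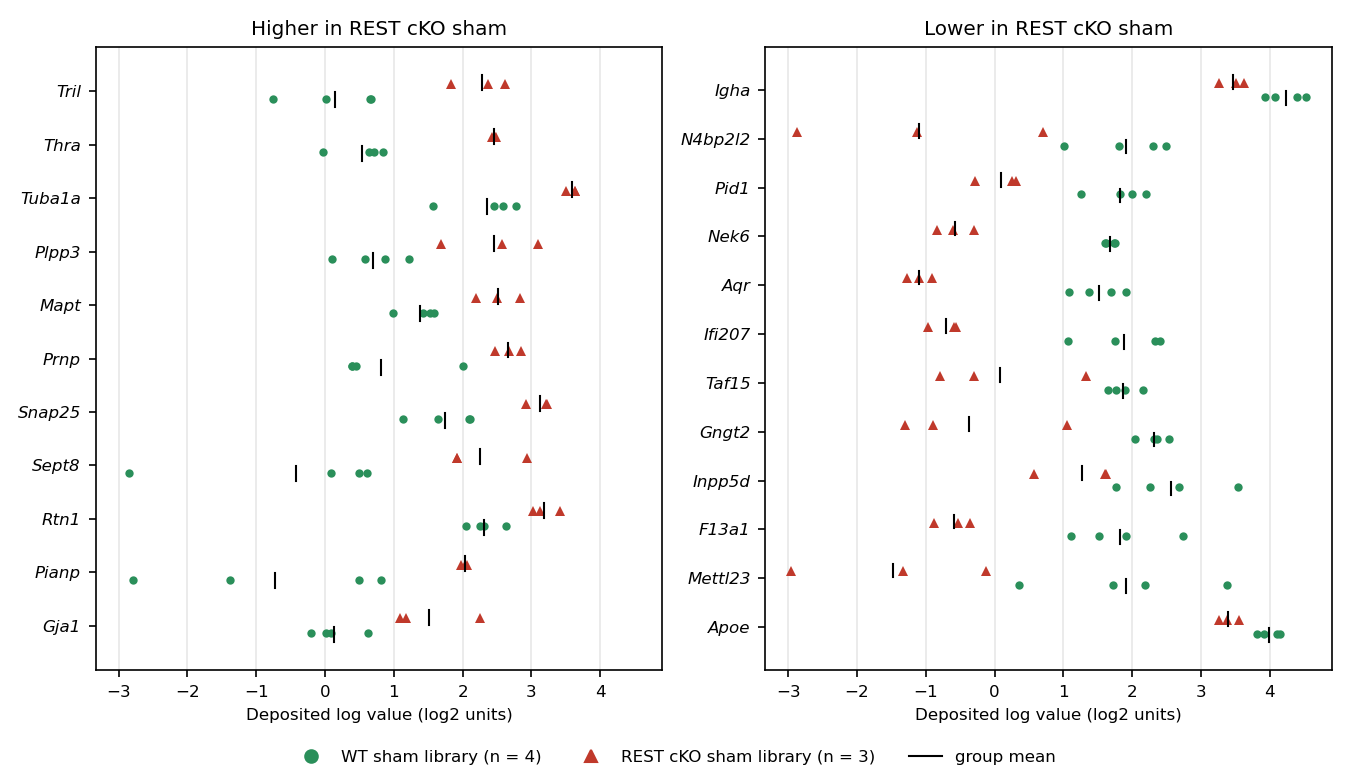
Deposited log values of the genes with the smallest p-values in sham, 11 with higher values and 12 with lower values in REST cKO, with 1 point per library and colours for WT and REST cKO. The rule that chose the genes leaves no overlap between the genotypes, and *Thra* (2.43 to 2.49 in REST cKO) and *Nek6* (1.60 to 1.74 in WT) show tight groups.

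Genes long known as targets of REST had higher values in REST cKO more often than lower ones. Of 71 listed genes 58 were measured, and 48 of them had a positive difference, with a median of 1.11 against 0.04 for all genes. Under the unadjusted threshold 11 of 58 (19%, against 3.67% of all genes) had higher values and 0 had lower ones, and 0 passed the test. The REST cKO libraries lay above all WT libraries for 9 of the 58 (4.02% of all genes lay so). Averaged over the list, the level was -0.51, 0.42, 0.24 and 0.30 in WT and 1.39, 0.31 and 0.89 in REST cKO. Replicate 18 lay within the WT range and replicate 6 was the highest. The median difference was 1.47 in batch 1, where replicate 6 belongs, and 0.14 in batch 2, where replicate 18 belongs, and it was 0.67 without replicate 6. The number with higher values was 7 without WT replicate 3, 7 without REST cKO replicate 6, 7 with the microglial term, 6 within batches 1 and 2, and 4 with only the sham libraries and the components. The 11 markers of excitatory neurons had means of 0.72 to 0.97 in WT and 1.58, 0.86 and 1.38 in REST cKO, also with replicate 18 inside the WT range and replicate 6 the highest. For the 10 markers of all neurons the means were 2.47, 1.88 and 2.53 in REST cKO, with replicate 18 the lowest of the 3. The lists share members, such as *Stmn2* and *Nefl*, which are both classical targets and markers of all neurons. These markers are therefore not a separate measure of neuron content, and its part in the values of the list was not tested.

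The classical targets under the unadjusted threshold included genes of vesicles, granules and the cytoskeleton. *Syn1*, the vesicle phosphoprotein synapsin I, was at -0.90, 0.54, 0.91 and 0.62 in WT and at 2.15, 1.61 and 2.14 in REST cKO, a difference of 2.27 (SE 0.92, adjusted p = 0.624). *Chgb*, the granule protein chromogranin B, was at 0.61, 0.48, 2.25 and 1.49 against 2.88, 2.74 and 3.21, a difference of 2.22 (SE 0.67, adjusted p = 0.487). *Stmn2*, a microtubule regulator of axons, was at 0.66, 1.41, 1.04 and 1.35 against 2.47, 1.66 and 2.57, a difference of 1.57 (SE 0.57, adjusted p = 0.562). None of the 3 overlapped between the genotypes. *Kif5c*, a kinesin motor, was at 0.06, 0.42, 0.87 and 0.94 against 2.18, 1.12 and 2.74, a difference of 1.75 (SE 0.57, adjusted p = 0.535). *Nefl*, the light neurofilament chain, was at -2.84, 1.84, -1.10 and 1.20 against 2.36, 2.59 and 2.56, a difference of 3.35 (SE 1.38, adjusted p = 0.629). Its WT libraries were widely spread while its REST cKO libraries were not.

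The glutamate receptor subunit *Grin1*, another classical target, differed between the REST cKO libraries. It was at -1.31, -3.09, -0.71 and -1.18 in WT and at 0.99, -1.89 and 1.05 in REST cKO, so that replicate 18 fell inside the WT range. The difference was 2.50 (SE 1.17, adjusted p = 0.692), 3.18 in batch 1 and -0.94 in batch 2, and the gene is among those that correlate with a component. *Celsr3*, a cadherin of axon guidance and the lowest member, was at -3.37, 3.09, 1.70 and -1.18 in WT and at -0.95, -1.70 and -2.61 in REST cKO. Its difference of -3.03 came with WT libraries on both sides of the REST cKO libraries.

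**Figure D3:**
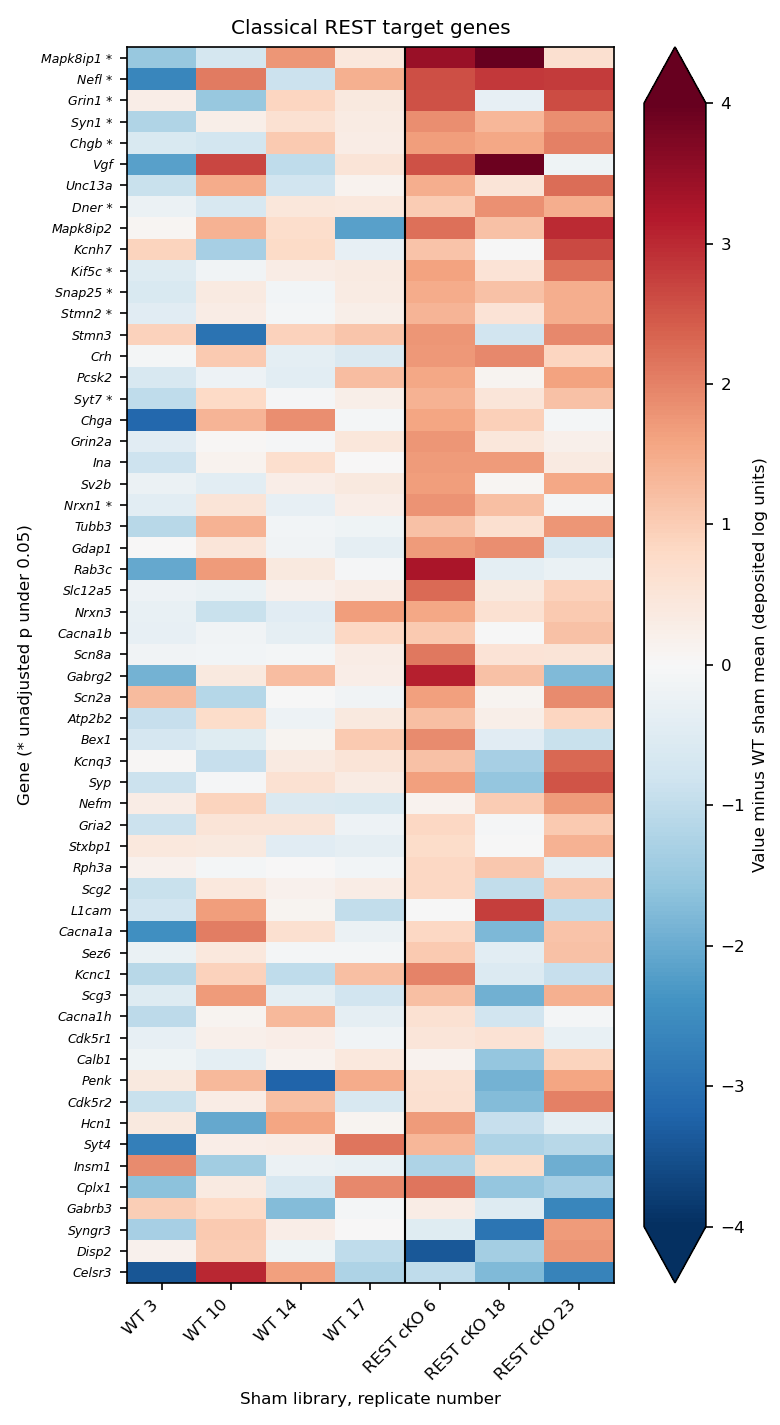
Classical REST target genes (rows) in each sham library (columns, by replicate number), coloured by the value minus the WT sham mean in deposited log units, with a star at an unadjusted p under 0.05. REST cKO replicates 6 and 23 are mostly above the WT mean, while replicate 18 is mixed.

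Other neuronal groups had positive medians with few members under the threshold. For synaptic vesicle and exocytosis genes 6 of 46 (13%, against 3.67% of all genes) had higher values and 0 lower, with a median of 0.91 that was 1.47 in batch 1 and -0.15 in batch 2. The number with higher values was 1 within batches 1 and 2, 2 without WT replicate 3 or REST cKO replicate 23, 3 without WT replicate 14 or REST cKO replicate 6, and 12 without REST cKO replicate 18. *Slc17a7*, the vesicular glutamate transporter of cortical excitatory neurons, was at 1.75, 1.93, 1.75 and 2.13 in WT and at 2.60, 1.80 and 2.88 in REST cKO, with replicate 18 inside the WT range and a difference of 0.97 (SE 0.42, adjusted p = 0.669). *Syt11*, a synaptotagmin, was at 0.84 to 3.28 in WT and at 2.98 to 3.12 in REST cKO, a difference of 1.09 (SE 0.48, adjusted p = 0.677) with overlap that was 0.71 without WT replicate 3.

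Few ion channel genes met the unadjusted threshold, and the lists were not tested as groups. Of 33 potassium and HCN channel genes 0 met it in either direction, with a median of 0.79 that was 1.76 in batch 1, -0.13 in batch 2 and 0.36 without REST cKO replicate 6. Of 17 sodium and calcium channel genes, with a median of 0.56 that was 1.09 in batch 1, -0.29 in batch 2, 0.21 without that replicate and -0.11 with the microglial term, only *Cacnb2* met it (5.88%, against 3.24% of all genes). It encodes a calcium channel beta subunit. *Cacnb2* was at 1.02, -0.64, -0.34 and 1.12 in WT and at -3.40, -1.21 and -1.53 in REST cKO, below all WT libraries, a difference of -2.69 (SE 1.27, adjusted p = 0.692) that was -1.39 without replicate 6. *Scn8a*, a sodium channel of the axon initial segment, was at 0.15 to 0.58 in WT and at 2.38, 0.82 and 0.81 in REST cKO, a difference of 1.19 (SE 0.62, adjusted p = 0.747). Its libraries did not overlap, although replicate 6 carried most of the difference, which was 2.21 in batch 1, 0.41 in batch 2 and 0.23 without replicate 6.

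Among 32 glutamate and GABA receptor genes 1 (*Grin1*; 3.12%, against 3.67% of all genes) had higher values and 0 lower, and 10 of the 32 correlate with a component. Their median of 0.88 was 1.55 in batch 1, -0.26 in batch 2 and 0.14 without REST cKO replicate 6, and it was 0.56 without WT replicate 3. Among 18 genes of neuropeptides, neurotrophins and dense-core vesicles 3 (16.7%, against 3.67% of all genes) had higher values and 0 lower, with a median of 1.16. These were *Chgb*, the peptide-processing enzyme *Cpe* with a difference of 1.22 (SE 0.48, adjusted p = 0.603), and *Nrn1*, the growth-promoting neuritin, with a difference of 1.52 (SE 0.68, adjusted p = 0.677). The median of this group was 1.23 in batch 1 and 0.61 in batch 2.

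The cytoskeleton of the axon had a higher share under the threshold than all genes. Of 48 genes of microtubules, motors and neurofilaments 12 (25%, against 3.67% of all genes) had higher values and 0 lower, with a median of 0.61, 0.99 in batch 1, 0.06 in batch 2 and 0.40 without REST cKO replicate 23. The 12 became 6 within batches 1 and 2 and 8 with the microglial term, with only the sham libraries and the components, or without REST cKO replicate 23, and 2 genes had lower values without REST cKO replicate 6. REST cKO libraries were above all WT libraries for 10 of the 48 (4.02% of all genes lay so). The list shares *Stmn2*, *Kif5c* and *Nefl* with the classical targets. Besides *Tuba1a*, *Mapt*, *Stmn2*, *Kif5c* and *Nefl* the 12 included *Mapre2*, a protein of microtubule plus ends, at 0.96, -3.12, -0.07 and 0.31 in WT and 1.35, 0.67 and 2.22 in REST cKO. Its difference of 3.06 (SE 0.83, adjusted p = 0.39) came with overlap and with a single very low WT library, replicate 10, without which it was 2.00. Of 47 genes of axon guidance and adhesion 5 (10.6%, against 3.67% of all genes) had higher values and 0 lower, with a median of 0.60 that was 0.74 in batch 1 and 0.01 in batch 2. The 5 became 3 without REST cKO replicate 6 and 0 with only the sham libraries and the components. *Cntn1*, an adhesion protein of axons, was at 0.26, 0.62, 1.22 and 1.31 against 1.85, 2.02 and 2.20, a difference of 1.64 (SE 0.66, adjusted p = 0.617) that was 2.50 without REST cKO replicate 6. *Efna5*, a repulsive ephrin ligand, differed by 3.65 (SE 1.19, adjusted p = 0.534), with all REST cKO libraries at 1.02 to 1.78 and all WT libraries below 0.

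**Figure D4:**
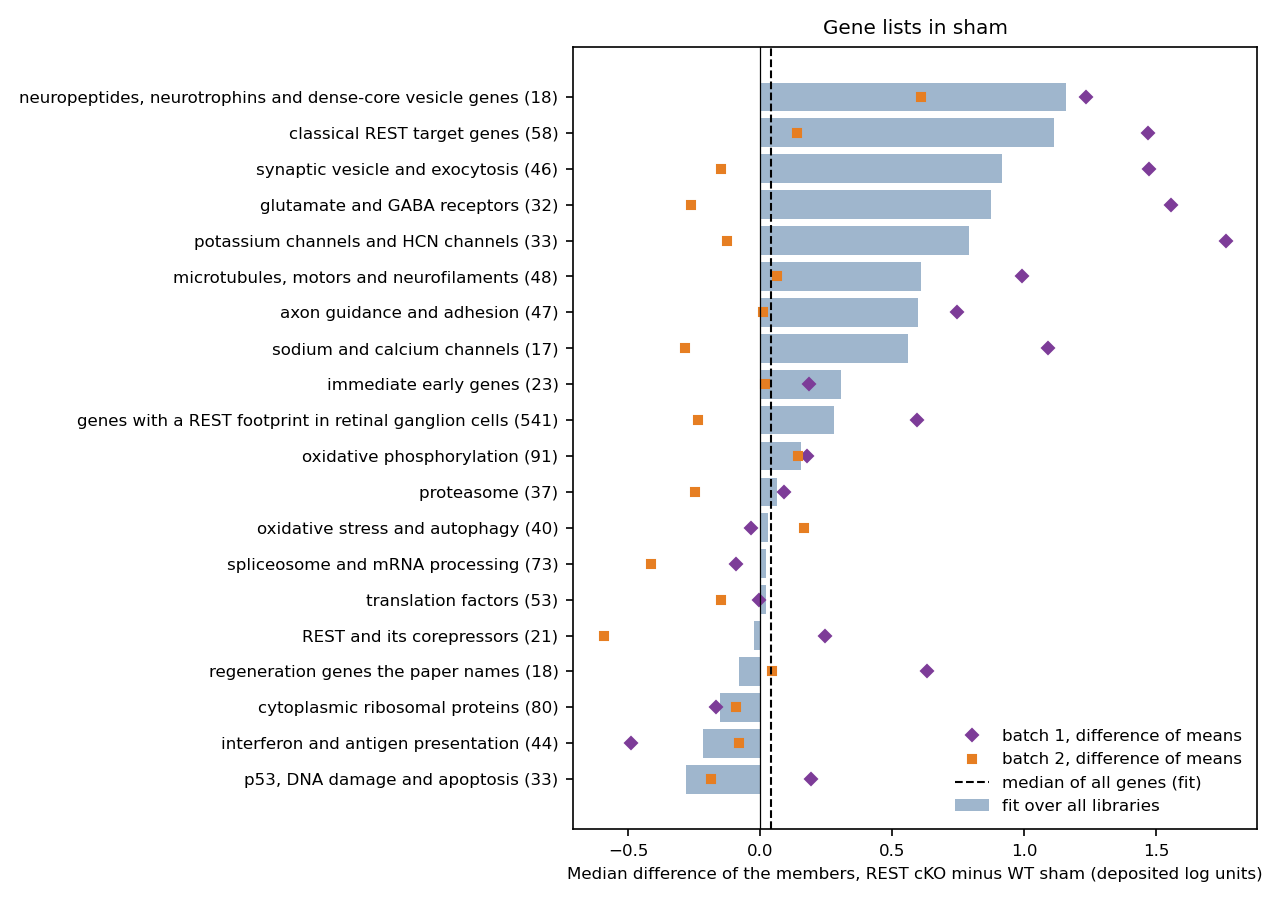
Median difference of each gene list in sham, REST cKO minus WT in deposited log units, with the number of measured genes in brackets, for the fit and within batches 1 and 2. The median of all genes is 0.04, and the neuronal lists lie farther to the right in batch 1 than in batch 2.

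Genes tied to regeneration were split evenly before injury, with 9 positive and 9 negative differences. They include *Socs3* and *Klf4*, which the study describes as repressors of regeneration, so the split mixes genes of opposite roles. The 18 regeneration genes that the study discusses had a median of -0.08. It ran from -0.33 without WT replicate 3 to 0.12 without WT replicate 17, and from -0.19 to 0.26 over the other alternatives. Under the unadjusted threshold 2 had higher values (11.1%, against 3.67% of all genes) and 1 had lower ones (5.56%, against 3.24%). Of the 18, 11 correlate with a component. *Jun*, a transcription factor of the injury response, was at 2.02, 2.13, 2.02 and 2.82 in WT and at 2.80, 2.15 and 2.84 in REST cKO, a difference of 0.86 (SE 0.32, adjusted p = 0.562) that was 0.73 in batch 1 and -0.27 in batch 2. *Egr1*, an immediate early gene, was at 1.85, 1.65, 1.33 and 2.61 against 2.55, 2.55 and 2.62, a difference of 0.93 (SE 0.38, adjusted p = 0.623). Both overlapped through WT replicate 17. *Vav2*, a guanine nucleotide exchange factor, was at 1.32, 1.91, 1.83 and 0.63 against -1.16, -0.21 and 0.27, below all WT libraries, a difference of -2.35 (SE 0.74, adjusted p = 0.496).

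The growth cone protein *Gap43* was at 0.09, -0.69, 0.52 and -0.02 in WT and at 1.54, 0.95 and 0.84 in REST cKO, without overlap, a difference of 1.22 (SE 0.71, adjusted p = 0.775) that was 0.62 with a term for sex and 0.70 with the microglial term. *Basp1*, which acts beside it at the membrane, differed by 0.03 (SE 0.36, adjusted p = 0.997). The injury factor *Atf3* was at 0.29 to 1.29 in WT and at -1.04 to 0.20 in REST cKO, below all WT libraries, a difference of -0.84 (SE 1.06, adjusted p = 0.939). *Stat3* differed by 0.26 (SE 0.30), and by -0.026 without REST cKO replicate 23, and *Sox11* by -1.34 (SE 1.12). For *Sox11*, which drives axon growth programmes, the sign turned to 0.28 without REST cKO replicate 6. *Jun*, *Egr1*, *Atf3*, *Stat3* and *Sox11* are among the genes that correlate with a component.

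Stress and survival genes gave small medians. Of 23 immediate early genes 2 (8.7%, against 3.67% of all genes) had higher values and 0 lower (median 0.30, from -0.031 without WT replicate 10 to 0.58 without REST cKO replicate 6), and these were *Jun* and *Egr1*. Of 33 genes of p53, DNA damage and apoptosis 2 (6.06%) had higher values and 0 lower (median -0.28, and 0.029 without WT replicate 14). These were *Cdkn1a*, the cell cycle inhibitor p21, with a difference of 2.21 (SE 1.00, adjusted p = 0.686), and *Gadd45b*, a stress sensor, with 2.56 (SE 1.17, adjusted p = 0.686). In both a single WT library, replicate 10, was far below the others, at -2.90 and -3.10, and without it the differences were 1.11 and 1.34. Of 40 genes of oxidative stress and autophagy 2 (5%) had higher values and 0 lower (median 0.03), and both encode proteins of the ATG8 family that coats autophagosomes. *Map1lc3a* was at -0.35, 0.11, 0.89 and 0.59 in WT and at 2.35, 1.47 and 1.33 in REST cKO, a difference of 1.83 (SE 0.71, adjusted p = 0.598) without overlap. *Gabarapl1* differed by 1.07 (SE 0.51, adjusted p = 0.703) with overlap, and by 0.47 without REST cKO replicate 6.

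Genes that every cell uses gave small medians in the fit. The medians were 0.02 over 73 spliceosome genes (1.37% higher and 5.48% lower under the unadjusted threshold), 0.06 over 37 proteasome genes (5.41% and 8.11%) and 0.02 over 53 translation factors (0% and 1.89%), against 3.67% higher and 3.24% lower of all genes. The proteasome median ran from -0.16 with the microglial term to 0.40 over the alternatives. In the proteasome list the 3 lower genes included *Psme1* and *Psme2*, subunits of the interferon-induced activator, which were at 2.46 to 2.89 and 2.42 to 2.68 in WT and at 1.86 to 1.92 and 1.33 to 2.36 in REST cKO. Their differences were -0.86 (SE 0.39, adjusted p = 0.686) and -0.90 (SE 0.38, adjusted p = 0.652), without overlap, and -0.52 and -0.22 with the microglial term. *Uchl1*, a ubiquitin hydrolase of neurons, differed the other way by 2.37 (SE 0.71, adjusted p = 0.487).

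Of 44 genes of interferon signalling and antigen presentation 0 had higher and 4 (9.09%, against 3.24% of all genes) lower values, with a median of -0.22 that was -0.12 without WT replicate 3 and -0.051 without REST cKO replicate 6. *H2-Aa*, a class II antigen-presenting chain, was at 3.66, 3.51, 3.29 and 3.17 in WT and at 3.04, 3.09 and 2.92 in REST cKO, below all WT libraries, a difference of -0.52 (SE 0.18, adjusted p = 0.562). *Stat2*, a transducer of interferon signals, was at 2.36, 2.51, 1.95 and 1.81 against 0.32, -0.12 and 2.18, with replicate 23 inside the WT range and a difference of -1.53 (SE 0.62, adjusted p = 0.623). The microglial markers were lower in the same libraries. *Ctss* was at 4.64, 4.39, 4.26 and 4.27 in WT and at 3.88, 3.85 and 4.24 in REST cKO, a difference of -0.51 (SE 0.16, adjusted p = 0.492).

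The 80 cytoplasmic ribosomal protein genes had a small negative median of -0.15, and 63 of them were negative, though only *Rpl30* (1.25%, against 3.24% of all genes) met the unadjusted threshold, with a difference of -0.40 (SE 0.17, adjusted p = 0.629) that was -0.091 with the microglial term. Over the alternatives the median ran from -0.22 to -0.036, and 0 to 6 of the 80 genes had lower values. Their mean level was 2.61 to 2.74 in WT and 2.52 to 2.57 in REST cKO. For 91 genes of oxidative phosphorylation the median was 0.15, with 3 higher (3.3%, against 3.67% of all genes) and 1 lower (1.1%, against 3.24%) under the unadjusted threshold, and 1 to 7 higher over the alternatives. *Uqcrb*, a subunit of complex III, was at 2.53, 2.26, 2.22 and 2.36 against 3.01, 3.10 and 2.96, a difference of 0.75 (SE 0.28, adjusted p = 0.562). The mitochondrially encoded *mt-Co1* differed by -0.41 (SE 0.19, adjusted p = 0.686). The 3 higher genes are encoded in the nucleus.

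The promoter element was then set beside these values. With up to 3 mismatches, RE1 was found in 385 of 32851 promoters (1.17%), in 95 of 7748 tested genes (1.23%), and, for the genes under the unadjusted threshold, in 4 of 280 genes with higher values (1.43%) and in 1 of 246 with lower values (0.407%). In the list of classical targets 6 of 32 genes with a promoter (18.8%) held it. The 95 genes had a median difference of 0.06, and 51 of them were positive. Of the 9 closest matches printed above 8 were positive, with a median of 0.83, but 4 of the 9 are in the classical list. *Syn1* and *Dner* met the unadjusted threshold. *Dner*, a transmembrane Notch ligand of neurons, was at -0.28, -0.68, 0.42 and 0.37 in WT and at 0.98, 1.77 and 1.41 in REST cKO, a difference of 1.96 (SE 0.85, adjusted p = 0.667).

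The remaining close matches did not meet it. *Fam163b* was at -0.64, 0.64, 0.52 and -0.73 in WT and at 1.52, 2.10 and 1.10 in REST cKO, a difference of 2.27 (SE 1.31, adjusted p = 0.774), and *Scamp5*, a secretory carrier protein, was at -0.08 to 1.30 against 1.40 to 1.57, a difference of 0.83 (SE 0.71, adjusted p = 0.887). Neither overlapped between the genotypes. *Osbp2*, the one exact match, differed by 0.26 (SE 0.65, adjusted p = 0.98) and *Rasgrf1* by 0.17 (SE 0.48, adjusted p = 0.98), both with overlap. A match of letters is not evidence that REST binds there, and RE1 copies outside the window were not searched. The study predicted REST footprints in retinal ganglion cells from sites seen after optic nerve crush and absent without injury. They are set here beside uninjured cortical neurons. Genes whose REST footprint was listed in retinal ganglion cells, 541 measured of 802, had a median of 0.28 that was 0.59 in batch 1, -0.24 in batch 2, 0.17 without REST cKO replicate 6 or 23 and 0.13 with the microglial term, with 26 (4.81%, against 3.67% of all genes) higher and 6 (1.11%, against 3.24%) lower under the unadjusted threshold. Over the alternatives 18 to 39 had higher and 5 to 16 lower values, with 39 higher without REST cKO replicate 18 and 16 lower without REST cKO replicate 23. *Prickle2*, a planar polarity gene with a match of the looser kind, was at -0.34, -0.35, -1.31 and 0.79 in WT and at 2.12, 0.87 and 2.04 in REST cKO, a difference of 2.80 (SE 0.84, adjusted p = 0.487).

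Whether the genotype difference of uninjured neurons recurred after SCI was read from separate libraries at days 3 and 7. At day 7 the WT libraries are all labelled female and the REST cKO libraries all male. Labelled sex and genotype cannot be told apart at that day. Of the 364 genes with higher values in sham, 44.5% were positive at day 3, where 52.4% of all genes were, and 67.6% at day 7, where 60.5% of all genes were. Of the 322 with lower values, 41.3% were negative at day 3 (47.6% of all genes) and 45.3% at day 7 (39.5% of all genes). The classical targets had medians of 1.11 in sham, -0.12 at day 3 and 0.86 at day 7. Genes of microtubules, motors and neurofilaments had 0.61, -0.07 and 0.45, and the 18 regeneration genes had -0.08, 0.10 and 1.75. The study names many of these 18 because they rose after REST deletion in injured neurons of this series. Their median at day 7 is therefore not an independent result. A test of the change itself, from sham to day 7, was passed by 2 of 9931 genes (0.0201%) and from sham to day 3 by 0 (511 at an unadjusted p under 0.05), with limma at an adjusted p under 0.1. WT day 3 replicate 5 stood apart, with 29.5% of its values under -2 against 2.77% to 17% in the other libraries at days 3 and 7. Without it 44.8% of the genes with higher values were positive at day 3 (48.9% of all genes), 41.3% of those with lower values were negative (51.1% of all genes), and the 3 medians at day 3 were -0.24, -0.14 and 0.31. Over the libraries of day 3 left out in turn the medians ran from -0.31 to -0.047 for the classical targets, -0.25 to 0.022 for microtubule genes and 0.00487 to 0.31 for regeneration genes. At day 7 they ran from 0.83 to 1.01, 0.23 to 0.53 and 1.01 to 1.83, with 0.23 without WT replicate 7 and 1.01 for regeneration genes without REST cKO replicate 13. The lists' medians were not tested against each other.

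**Figure D5:**
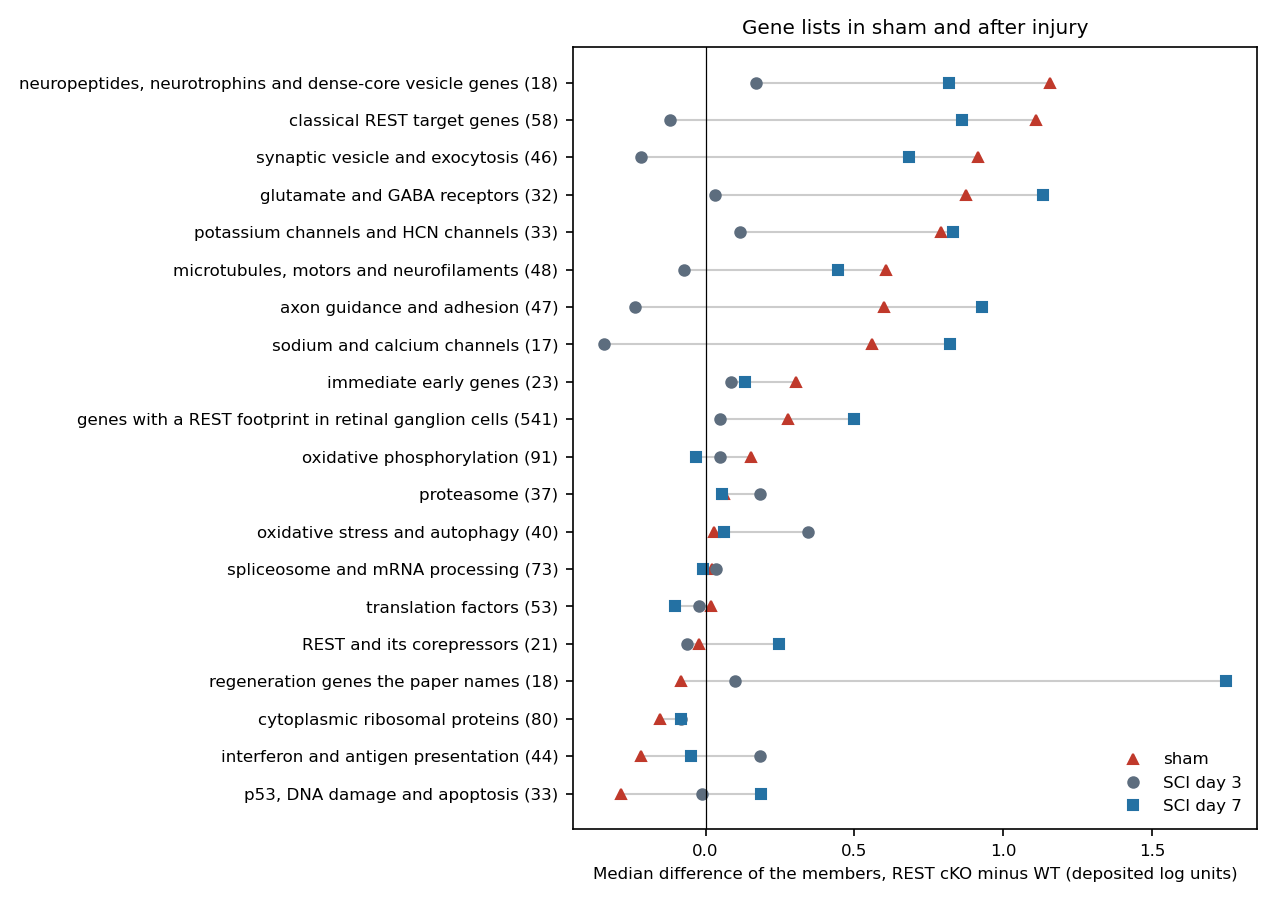
Median difference of each gene list, REST cKO minus WT in deposited log units, in sham and at days 3 and 7 after SCI, with the number of measured genes in brackets. The median of the classical targets is 1.11 in sham, -0.12 at day 3 and 0.86 at day 7, whereas that of the regeneration genes is farthest from 0 at day 7, at 1.75. Many of the regeneration genes were named by the study for a rise after injury in these libraries. At day 7 the WT libraries are labelled female and the REST cKO libraries male.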

How the data were processed

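RNA-seq values of FACS-sorted cortical neurons came from 1 table, and its log2 columns hold normalized counts as the authors deposited them. The authors mapped reads to mm10/GRCm38 with STAR, quantified transcripts with Salmon, summarized them by gene with tximport, scaled depth with geometric means in DESeq2, applied RUV against batch effects and removed genes without counts in most samples. The values behave as though the 2 sequencing components were regressed out, except in 140 genes. The table also holds log fold changes, p-values and FDR values of the authors' own comparisons, which were not used. It holds no read totals, so depth per library is unknown and only the spread between libraries gives an error. Of 9955 rows, 24 without a symbol were left out, and 9930 of the other 9931 genes were found by identifier in GENCODE M21 (GRCm38). 7748 genes matched a RefSeq promoter by symbol.

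The 25 libraries were modelled together in limma 3.58.1 (R 4.3.3). The model held 8 group means plus both components, which left 15 residual degrees of freedom. Variances were moderated along a trend and p-values were adjusted by Benjamini-Hochberg across the 9931 genes. The components were kept so that the degrees of freedom they used are counted. A difference within a batch is one of plain means, without the components. Tables and figures were made with Python 3.11.15, pandas 2.3.3, numpy 2.4.6 and matplotlib 3.10.9.

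The members and gene lists were chosen with earlier results of these data known, and list counts are descriptions. Genes named are those that passed the test, the 12 higher and the 12 lower with the smallest p-values among genes of the autosomes and mitochondria whose libraries do not overlap and whose mean is at least 0, *Rest*, the 18 regeneration genes, and up to 4 members of each list with the smallest p-values. Predicted and clone names were left out of the 12 and 12, and 3 of the genes that the rule gives are not reported here. Other list members and genes with a close RE1 match were named after their values were seen. Alternatives were no components, only the sham libraries with or without components, terms for batch or sex, male libraries only, batches 1 and 2 only, library weights, a mean of at least 0, no trend, quantile normalization, median centring, omission of component-correlated genes, an adjusted p under 0.05 and leaving out each library. Terms for the share of values under -2 and for the microglial markers were added after seeing the data, as was leaving out each library of days 3 and 7.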

Additional observations from a re-analysis of the deposited data

Results flagged for a closer look

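In the 137 named genes the 4 WT sham libraries were checked for a single library far from the other 3, and 7 genes had one, where chance alone gives about 1 in 20. WT replicate 17 was the highest for *Prnp* (2.00), *Jun* (2.82), *Scn8a* (0.58) and *Gabbr2* (2.18), the last a GABA-B receptor subunit. WT replicate 10 was the lowest for *Sept8* (-2.84), WT replicate 3 for *Camk2a* (1.09) and WT replicate 14 for the microglial *Tyrobp* (3.14). The spread of the other WT libraries in *Tyrobp* was only 3.18 to 3.19, so that its gap is small in size.

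The genotype difference changed from sham to day 7 in 2 genes, by a test of the change itself in limma. For *Phf14*, which encodes a chromatin reader, it was -1.90 in sham and 2.49 at day 7, a change of 4.39 (SE 0.83, adjusted p = 0.078). In sham its libraries were at 2.41, 2.44, 1.40 and 1.74 in WT and at -0.02, 1.13 and 1.45 in REST cKO. At day 7 they were at 0.61, 0.62 and 1.21 in WT and at 2.64, 3.86 and 2.40 in REST cKO.

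For *Rxrb*, a retinoid X receptor, the difference was -3.71 in sham and 5.12 at day 7, a change of 8.83 (SE 1.61, adjusted p = 0.078). In sham its libraries were at 1.43, 1.84, -0.57 and 0.09 in WT and at -3.53, -2.23 and -0.46 in REST cKO. At day 7 they were at -3.55, -3.24 and -2.68 in WT and at 1.93, 1.96 and 1.16 in REST cKO, without overlap. Both genes overlapped between the genotypes in sham through REST cKO replicate 23. At day 7 the WT libraries are all labelled female and the REST cKO libraries all male. Labelled sex and genotype cannot be told apart in the day 7 values of either gene.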

How the results depend on the processing

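Depth is unknown. The number of genes past the test in sham (3, all lower) was 0 without the components, with only the 7 sham libraries (with or without components), with male libraries only, without a trend and at an adjusted p under 0.05. It was 1 with the microglial term, 6 with a term for sex, 7 with library weights, 9 with quantile normalization (2 of them higher) and 10 within batches 1 and 2. Leaving out 1 library gave 0 to 13 genes, namely 0 without WT replicate 3, 10 or 14, 1 without REST cKO replicate 6 and 13 without REST cKO replicate 23. Where it was 0, 549 to 686 genes met an unadjusted p under 0.05 in limma. The cause was not tested. The 364 genes with higher values under that threshold became 233 with the sham libraries and components, and 241 among genes with a mean of at least 0, where fewer genes are tested. Higher genes were 53.1% of those under the threshold, and 41.5% to 62.6% over the alternatives.

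The 2 genes whose difference changed from sham to day 7 became 0 when the components were omitted, when a term was added for batch, sex or the microglial markers, with male libraries only, with a mean of at least 0, with median centring and at an adjusted p under 0.05 (405 to 654 genes at an unadjusted p under 0.05). They became 1 within batches 1 and 2 and with quantile normalization, and 4 with library weights and without a trend. Leaving out 1 sham library gave 0 to 3 genes, with 0 without WT replicate 3, 10 or 17. Leaving out 1 library of day 7 gave 0 to 6 genes, with 6 without WT replicate 7 and 0 without WT replicate 12 or REST cKO replicate 2 or 26. The count of 0 for day 3 stayed 0 in all alternatives run.

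Of the 137 named genes 124 kept the sign of their difference in every alternative run, and 13 did not. With male libraries only, *Smad1* was at -0.091, *Basp1* at -0.11, *Syt4* at 0.062, *Socs3* at 0.41 and *Snrpg* at -0.047. *Smad1* was also at -0.13 with library weights, quantile normalization or the microglial term, with which *Socs3* was at 0.42 and *Mobp* at -0.76. With a term for sex *Basp1* was at -0.069 and *Syt4* at 0.49. *Stat3* was at -0.016 without the components and at -0.00263 within batches 1 and 2, where *Basp1* was at -0.12. *Basp1* was at -0.036 with median centring. With only the sham libraries and the components *Syt4* was at 1.03 and *Olig2* at 1.52.

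Leaving out 1 library gave -0.54 to 0.64 for *Smad1*, -1.83 to 0.28 for *Sox11*, -0.026 to 0.68 for *Stat3*, -0.13 to 0.12 for *Basp1*, -2.07 to 0.19 for *Syt4* and -1.15 to 0.16 for *Socs3*. It gave -2.25 to 0.31 for *Mag*, -0.039 to 1.25 for *Mobp*, -0.25 to 1.29 for *Cspg4*, -1.99 to 0.00184 for *Olig2*, -0.58 to 0.87 for *Acta2* and -2.43 to 0.17 for *Eif2s3y*. None of these 13 genes passed the test. Others moved by over 1.5 times without a change of sign. Without the components *Jun* was at 0.35, *Slc17a7* at 0.54, *Grin1* at 1.62, *Gadd45b* at 1.57, *Mapre2* at 1.89 and *mt-Co1* at -0.25. With the microglial term *Syt11* was at 0.57, *Scn8a* at 1.80 and *Ctss* at -0.26. With male libraries only *Egr1* was at 0.54, *Cdkn1a* at 1.26 and *Ctdsp1* at 4.24. No paired analysis was possible because the replicate numbers run over the whole series and none is shared by the genotypes.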
